A study of Mus musculus with 6 samples.

Results

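The genes described are the 9 integrin subunits of the receptors for fibronectin and vitronectin, Itgav, Itga4, Itga5, Itga8, Itga9, Itgb3, Itgb5, Itgb6 and Itgb8. They were taken from the deposited expression table by gene symbol, and all 9 were measured, each by 1 probe set, among 20239 named genes. The RNA came from isolated mouse pericytes (C57BL/6), the mural cells of capillaries, and was hybridised to 1-colour arrays. The 3 PDGF-BB arrays came from pericytes given platelet-derived growth factor BB (PDGF-BB, the main ligand of the receptor PDGFR-β) at 100 ng/ml for 5 days, and the 3 control arrays from pericytes kept for the same time as controls. The labels number the arrays 1 to 3 in each group and do not say whether they came from separate isolations or cultures, nor from which organ, so the spread behind each p-value may be no more than technical.

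Integrins are membrane receptors made of 1 α and 1 β subunit, and the pairing sets which matrix protein they hold. The αv subunit (Itgav) pairs with β1, β3, β5, β6 or β8 and recognises the short arginine-glycine-aspartate (RGD) motif of vitronectin, fibronectin and the latency peptides of transforming growth factor beta (TGF-β). The α5 and α8 subunits pair with β1 alone and also read RGD, α5 in fibronectin and α8 in nephronectin, whereas α4 and α9 bind mainly other motifs, in fibronectin, VCAM1, tenascin C and related proteins. On mural cells these receptors anchor the cell to the vessel's matrix and help to release active TGF-β. The arrays measured mRNA, so neither the amount of subunit protein nor that of any α-β pair is known, and a smaller share of cells with an mRNA cannot be told apart from less of it per cell.

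PDGF-BB changed the β subunits of the vitronectin receptors in opposite directions and left the αv mRNA they share without a detected change. Itgb3 rose 1.63-fold and Itgb5 was 1.43-fold lower. Among the α subunits Itga4 rose by an estimated 2.22-fold, a size that is uncertain because its control values were dim. Of the 9 subunits 2 rose, 1 fell and 6 did not pass the threshold, which was an adjusted p under 0.05 (limma, two-sided, Benjamini-Hochberg over all 20239 genes). That is 33.3% of the 9, beside a background of 21.5% of all genes called by the same rule, 10.1% higher and 11.4% lower. The median log2 change of the 9 was 0.20, beside -0.02 for all genes. When arrays of the same number were treated as a block (the paired fit), 4 subunits rose, Itga8 and Itgb8 being the additional ones, and 1 fell. In the unpaired fit, leaving out PDGF-BB array 1 gave 1 that rose and 2 that fell, leaving out control array 2 gave 1 that rose, and 0 fell without PDGF-BB array 2 or 3 or control array 3. The groups did not overlap in 4 of the 9 subunits, against 37.6% of all genes.

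**Figure D1:**
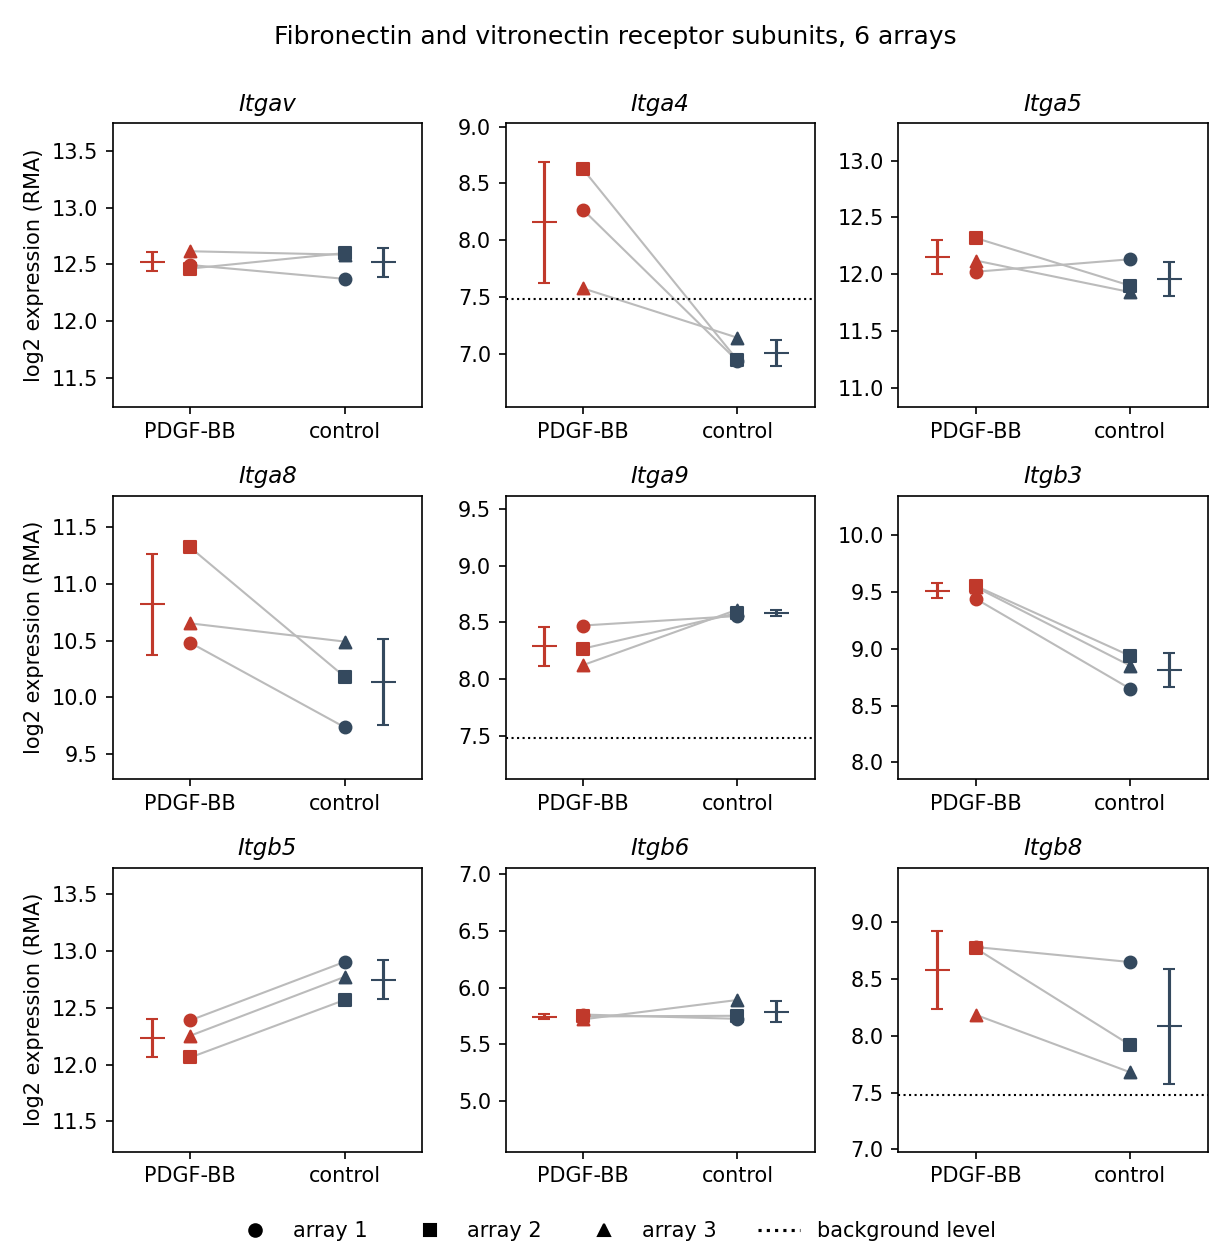
Log2 expression (vertical axes, all spanning the same range) of the 9 subunits in the 3 PDGF-BB arrays (left, red) and the 3 control arrays (right, dark blue); grey lines join arrays of the same number, crossbars give mean ± SD, and the dotted line is the background level of 7.48. All 3 PDGF-BB arrays lie above all control arrays for Itgb3 and Itga4 and below them for Itgb5 and Itga9, and the 3 lines of Itgb5 run nearly parallel.

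The cells were checked against markers of pericytes and of other cell types. Of 10 pericyte markers 8 lay above 7.48 in at least 1 group; this background level is that of 20 markers of lymphocytes, mast cells and erythroid cells, all taken as absent, at their 90th percentile, and 2 of the 20 lay above it. Pdgfrb measured 12.85 with PDGF-BB and 12.98 in control, but Rgs5 (7.71 with PDGF-BB, 7.77 in control) and Kcnj8 (7.63 with PDGF-BB, 7.85 in control) were barely above the level, and Abcc9 and Des were under it in both groups. Of the 10 pericyte markers 1 rose, Anpep (10.09 with PDGF-BB, 9.22 in control, adjusted p = 0.0028). Another 1 fell, Cd248 (11.84 with PDGF-BB, 12.17 in control, adjusted p = 0.040), so 20% were called, beside 21.5% of all genes. The fibroblast genes Dcn (13.63 with PDGF-BB, 13.54 in control), Col1a1 (12.92 with PDGF-BB, 12.76 in control) and Pdgfra (12.82 with PDGF-BB, 12.90 in control) were high in both groups. Pi16 was under the background level in both (7.07 with PDGF-BB, 7.08 in control). Of the 6 fibroblast markers measured 2 rose and 0 fell, namely Lum (10.99 with PDGF-BB, 8.08 in control, adjusted p = 0.0062) and Dpt (13.38 with PDGF-BB, 12.66 in control, adjusted p = 0.019). That is 33.3% called, beside 21.5% of all genes. The other 4 were not called, and the list's median log2 change was 0.12. The mean log2 value of the 6 was 11.55 to 11.95 across PDGF-BB arrays and 11.09 to 11.21 across control arrays. Of 6 smooth muscle markers 4 fell and 1 rose (83.3% called, beside 21.5% of all genes), and their mean was 9.10 to 9.59 with PDGF-BB and 10.24 to 10.65 in control. The means of the fibroblast and smooth muscle lists thus differed between the groups, with Lum and Dpt the only called genes of the fibroblast list. The part of both lists in the results below was not tested. Of 8 endothelial markers none was called, and 6 were under 7.48 in both groups. Over all genes, 36.0% had a mean of all 6 arrays under it. Vwf was above it in both groups (7.79 with PDGF-BB, 7.79 in control). Cdh5 measured 7.80, 7.88 and 7.23 with PDGF-BB and 7.23, 7.14 and 7.21 in control (adjusted p = 0.10). The list's mean was 6.84 to 6.94 with PDGF-BB and 6.86 to 6.89 in control. Of 4 glia markers measured 1 fell, Mbp (25% called, beside 21.5% of all genes). Sox10 (8.14 with PDGF-BB, 8.19 in control) and Mbp (7.60 with PDGF-BB, 8.11 in control) were above 7.48 in both groups, and the other 2 under it.

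Itgav itself, the common α partner, measured 12.50, 12.46 and 12.62 on the PDGF-BB arrays and 12.37, 12.60 and 12.59 on the control arrays. The groups overlapped, and the log2 change was 0.01 with a 95% interval of -0.19 to 0.20 (adjusted p = 0.98). An increase or decrease of more than about 0.20 log2 units thus lies outside that interval.

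Itgb3 encodes β3, which with αv forms the receptor for vitronectin found on angiogenic and migrating cells, and with αIIb the fibrinogen receptor of platelets. Its log2 values were 9.44, 9.55 and 9.54 with PDGF-BB and 8.65, 8.94 and 8.85 in control, so every PDGF-BB array lay above every control array. The log2 change was 0.70 (SE 0.09, 95% interval 0.50 to 0.90, adjusted p = 0.0026). The difference was 0.79, 0.62 and 0.69 between the arrays numbered 1, 2 and 3, and leaving out any 1 array kept the adjusted p between 0.0035 and 0.012. Of the 5 platelet markers measured none rose and 2 fell, Itga2b (αIIb) and Ppbp (40% called, beside 21.5% of all genes). The list's mean was 6.89 to 6.99 with PDGF-BB and 7.15 to 7.28 in control. Under the background level in both groups were 3 of the 5, Pf4 (5.35 with PDGF-BB, 5.41 in control), Ppbp (6.00 with PDGF-BB, 6.58 in control) and Gp9 (7.45 with PDGF-BB, 7.46 in control). Above it in both groups were the other 2, Itga2b (8.32 with PDGF-BB, 8.87 in control) and Gp5 (7.55 with PDGF-BB, 7.76 in control). The part of platelet RNA in the Itgb3 result was not tested.

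Itgb5 encodes β5, the other main vitronectin partner of αv, which takes up ligand and sits in clathrin-rich adhesions. It measured 12.39, 12.06 and 12.25 with PDGF-BB and 12.91, 12.57 and 12.77 in control, again without overlap but in the opposite direction. The log2 change was -0.51 (SE 0.11, 95% interval -0.78 to -0.24, adjusted p = 0.020). Between arrays of the same number the differences were -0.52, -0.51 and -0.52, although arrays within a group spread over 0.33 to 0.34 log2 units, and the paired fit gave an adjusted p of 0.0037. In the unpaired fit Itgb5 no longer passed when PDGF-BB array 2, PDGF-BB array 3 or control array 3 was left out (adjusted p = 0.057, 0.056 and 0.061 in that order).

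Because both β subunits compete for αv, the log2 value of Itgb3 minus that of Itgb5 was taken on each array. Its absolute size compares different probes and has no meaning, but its change is not altered by a constant added to all log2 values of an array. It was -2.95, -2.51 and -2.71 with PDGF-BB and -4.26, -3.63 and -3.92 in control. The groups did not overlap, and the difference was higher with PDGF-BB by 1.22 log2 units (-2.72 ± 0.22 with PDGF-BB and -3.94 ± 0.31 in control, SD, n = 3 each). A two-sided exact permutation test gave p = 0.10, the smallest p that 3 arrays against 3 allow. Because neither gene overlapped between the groups and they moved in opposite directions, the lack of overlap and this p were fixed in advance. They restate the 2 calls and add no further support to them. With repeated quantile normalization the change was 1.20 log2 units. A ratio within an array shows an unequal change of the 2 genes and not which of them changed.

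Itgb8, whose product with αv holds latent TGF-β for activation, measured 8.78, 8.77 and 8.19 with PDGF-BB and 8.65, 7.92 and 7.68 in control. Control array 1 lay among the PDGF-BB arrays, and the log2 change of 0.50 (95% interval -0.14 to 1.14) did not pass (adjusted p = 0.27). It passed in the paired fit, with replicate as a block (adjusted p = 0.047; differences 0.13, 0.85 and 0.51 by number) and without control array 1 (adjusted p = 0.039, log2 change 0.78). Itgb6, the epithelial partner of αv that activates latent TGF-β, lay under the background level on all 6 arrays, at 5.76, 5.75 and 5.72 with PDGF-BB and 5.73, 5.75 and 5.89 in control (log2 change -0.05, adjusted p = 0.70). A change of Itgb6 that stayed under the background level may not have been seen. The epithelial markers Epcam (6.30 with PDGF-BB, 6.28 in control) and Cdh1 (7.41 with PDGF-BB, 7.40 in control) were under the background level too. Of 7 such markers 4 were under it in both groups. Krt8 and Cldn4 were above it in both groups, and Krt18 was above it with PDGF-BB only. None of the 7 was called. The list's mean was 7.26 to 7.53 with PDGF-BB and 7.31 to 7.40 in control. Whether epithelial RNA was present was not tested.

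**Figure D2:**
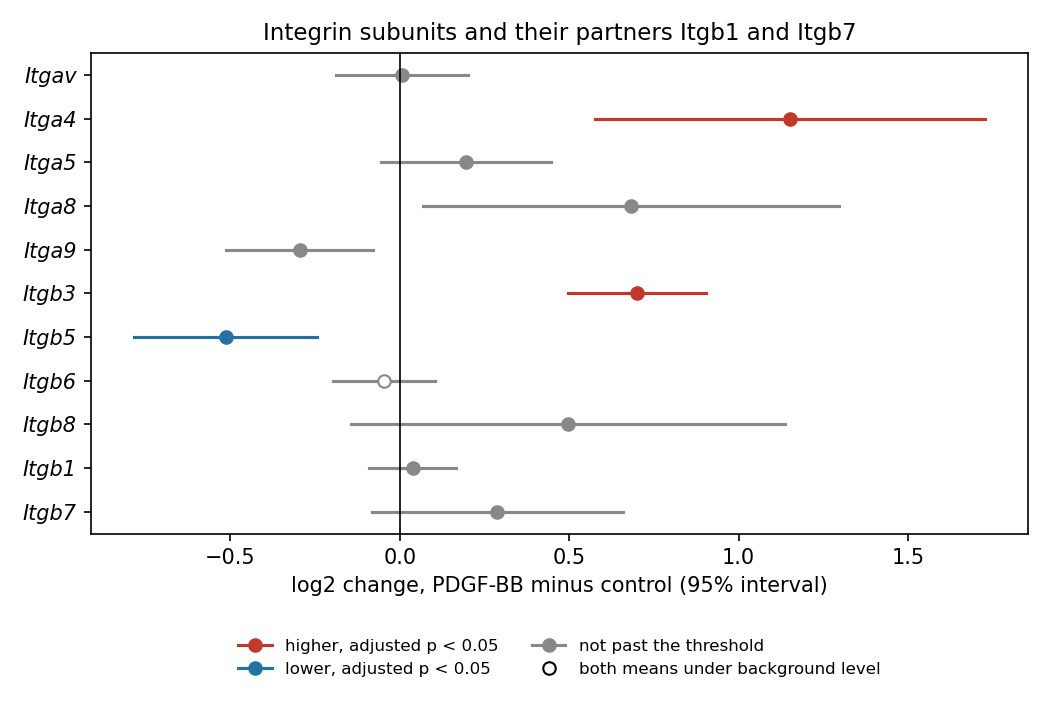
Log2 change (PDGF-BB minus control, horizontal axis) of the 9 subunits and of the partner subunits Itgb1 and Itgb7, with the 95% interval of limma's fit, which is not adjusted for the number of genes; red and blue mark genes past the adjusted threshold, grey those that are not, and the open point marks means under the background level in both groups. Itgb3 (0.70) and Itgb5 (-0.51) lie on opposite sides of 0, with Itgav (0.01) and Itgb1 (0.04) at 0.

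Itga4 encodes α4, which pairs with β1 to bind VCAM1 and an alternatively spliced stretch of fibronectin and is best known from leukocytes and from the contact of mural cells with endothelium. Its log2 values were 8.27, 8.63 and 7.58 with PDGF-BB and 6.94, 6.94 and 7.14 in control. All PDGF-BB arrays were above all control arrays, yet PDGF-BB array 3 stood near the control arrays, and the SD was 0.53 with PDGF-BB and 0.12 in control (n = 3 each). The log2 change was 1.15 (SE 0.24, 95% interval 0.58 to 1.73, adjusted p = 0.016). Since the control mean of 7.01 lay under the background level the true fold may be larger, and the interval also allows a smaller one. Itga4 no longer passed when PDGF-BB array 1 (adjusted p = 0.062) or control array 2 (0.054) was left out. Among leukocyte genes, Ptprc (CD45) was under the background level in both groups (6.17 with PDGF-BB, 6.17 in control). The 8 macrophage markers went both ways, with Mpeg1 and Cd14 higher and Cd68 and Lyz2 lower (50% called, beside 21.5% of all genes). Lyz2 was under the background level in both groups (5.80 with PDGF-BB, 6.29 in control). Mpeg1 measured 7.92, 7.90 and 7.11 with PDGF-BB and 6.39, 6.11 and 6.23 in control, with PDGF-BB array 3 lowest of its group, as for Itga4. The list's mean was 7.10 to 7.30 with PDGF-BB and 7.01 to 7.06 in control. The part of these markers in the Itga4 result was not tested. Itgb7, the other β partner of α4, was not called (adjusted p = 0.27) at a log2 change of 0.29, whose 95% interval was -0.08 to 0.66, and it passed without PDGF-BB array 3 (adjusted p = 0.039, log2 change 0.46).

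Itga5 encodes α5, which with β1 is the classical fibronectin receptor and builds fibronectin fibrils. It measured 12.02, 12.32 and 12.12 with PDGF-BB and 12.13, 11.90 and 11.84 in control. The groups overlapped through control array 1, and the log2 change of 0.20 (95% interval -0.06 to 0.45) did not pass (adjusted p = 0.27). Itgb1, the β subunit of α5, α8 and α9 and a partner of α4 and αv, did not pass either (adjusted p = 0.72), with a log2 change of 0.04 and a 95% interval of -0.09 to 0.17.

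Itga8 encodes α8, a subunit of vascular smooth muscle and mesangial cells. Its log2 values were 10.48, 11.32 and 10.65 with PDGF-BB and 9.74, 10.18 and 10.49 in control. PDGF-BB array 1 lay just under control array 3, so the groups overlapped, but each PDGF-BB array exceeded the control array of its number, by 0.75, 1.14 and 0.16. The log2 change was 0.68 (95% interval 0.07 to 1.30) with an adjusted p of 0.11, and the adjusted p was 0.039 in the paired fit. Itga9 encodes α9, which with β1 binds tenascin C and VCAM1, and it measured 8.47, 8.27 and 8.12 with PDGF-BB and 8.56, 8.58 and 8.61 in control. All PDGF-BB arrays lay below all control arrays by this small margin, the log2 change was -0.30 (95% interval -0.51 to -0.08, adjusted p = 0.063), and it passed without PDGF-BB array 1 (adjusted p = 0.023, log2 change -0.39).

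The sequences before the starts of Itgb5 and Itga4 are shown because these called subunits went in opposite directions. RefSeq's promoter table for GRCm38.p6 held 8 of the 9 subunits, Itgb3 not among them. The 250 bases before each annotated start follow, 5′ to 3′ on the gene's strand, for Itgb5 (chr16:33829415-33829664, plus strand) and Itga4 (chr2:79255176-79255425, plus strand), with GC boxes, the GGGCGG motif read by Sp1 family factors, in capitals on either strand.
Itgb5: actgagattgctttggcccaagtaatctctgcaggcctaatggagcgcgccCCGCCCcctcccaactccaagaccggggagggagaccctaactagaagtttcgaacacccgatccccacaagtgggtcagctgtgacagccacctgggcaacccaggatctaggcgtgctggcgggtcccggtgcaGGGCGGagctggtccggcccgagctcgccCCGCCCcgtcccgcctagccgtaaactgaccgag
Itga4: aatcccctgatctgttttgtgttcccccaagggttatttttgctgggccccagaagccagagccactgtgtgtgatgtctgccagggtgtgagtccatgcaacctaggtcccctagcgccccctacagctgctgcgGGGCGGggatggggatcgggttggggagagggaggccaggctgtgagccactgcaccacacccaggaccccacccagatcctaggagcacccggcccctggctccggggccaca
The Itgb5 stretch holds 3 GC boxes and is 65.2% G or C, and the Itga4 stretch holds 1 and is 64.0% G or C, beside a median of 52.4% over all 32851 promoters in the table. A GC box occurs in 32.7% of these promoters. Of the other members, Itga5 has 2 such matches and Itgav, Itga8, Itga9, Itgb6 and Itgb8 have 0. The AP-1 motif TGACTCA (in 4.46% of promoters) and the TEAD core GGAATG (in 12.6%), searched on both strands, matched in none of the stretches of the 8 members, which says only that these letters are not in these windows. The motifs do not overlap each other in the sequences shown.

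The other integrin subunits were counted in the same fit. Of 17 measured, Itgb1 and Itgb7 among them, 2 rose and 4 fell, which is 35.3% called, beside 21.5% of all genes (10.1% higher and 11.4% lower), and no test of the list was run. The median log2 change was -0.001, and 5 were under the background level in both groups. The largest change was that of Itga1, the collagen and laminin receptor α1, at -2.58 (SE 0.29, adjusted p = 0.0022), which is larger in size than that of any of the 9. Itgb2, the leukocyte β2, rose by 0.39 (adjusted p = 0.012). Itga2, the collagen receptor α2, rose by 0.64 (adjusted p = 0.028) and Itga3, the laminin receptor α3, fell by 0.66 on the log2 scale (adjusted p = 0.031). The Itga2 call was lost without PDGF-BB array 1 or any 1 control array (adjusted p = 0.054 to 0.085), and the Itga3 call without PDGF-BB array 2, control array 1 or control array 2 (0.064 to 0.083). The remaining called subunits, named after their values were seen, were Itga11, the collagen receptor α11, with a log2 change of -1.15 (adjusted p = 0.032) and Itga2b with -0.55 (0.033). The Itga11 call was lost without PDGF-BB array 1 or 2 or control array 2 or 3 (adjusted p = 0.092 to 0.11), and the Itga2b call without any 1 PDGF-BB array or control array 3 (0.067 to 0.093).

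The ligands of these receptors fell more often than they rose. Of 25 ligand genes measured from a list of 27, 10 fell, 2 rose and 13 did not pass, which is 48% called, against 21.5% of all genes, and the median log2 change was -0.07; whether the list differs from other genes was not tested. Fn1, fibronectin, the common ligand of α5, α4 and αv, was without a detected change at 13.79, 13.73 and 13.83 with PDGF-BB and 13.76, 13.72 and 13.83 in control (log2 change 0.01, 95% interval -0.13 to 0.16). The highest value in the table is 14.2, so Fn1 was among the brightest probe sets. Vtn, vitronectin, which binds the receptors of β3 and β5, lay under the background level on every array (6.68 to 6.88 with PDGF-BB and 6.76 to 6.81 in control). Its signal thus could not be told from background.

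Npnt, nephronectin, the main ligand of α8β1, was 3.33-fold lower. It measured 10.09, 8.88 and 10.02 with PDGF-BB and 11.79, 11.12 and 11.27 in control, all PDGF-BB arrays being below all control arrays (log2 change -1.73, SE 0.34, adjusted p = 0.012). Its receptor subunit Itga8 had a log2 change of 0.68, which did not pass. Vcam1, the ligand of α4 and α9, was 1.84-fold lower, at 11.81, 11.42 and 11.68 with PDGF-BB and 12.43, 12.49 and 12.61 in control (log2 change -0.88, SE 0.11, adjusted p = 0.0026). Vcam1 thus fell on arrays where the α4 mRNA rose. Tnc, tenascin C, a ligand of α9 and of αvβ3, rose 1.37-fold (13.57, 13.39 and 13.47 with PDGF-BB, and 12.90, 12.92 and 13.23 in control, adjusted p = 0.021). The Tnc call was lost without PDGF-BB array 1 or 3 or control array 1 or 2 (adjusted p = 0.053 to 0.074).

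Fbln5, the RGD-bearing elastic fibre protein fibulin 5, was 3.17-fold lower, with log2 values of 11.29, 10.50 and 11.13 with PDGF-BB and 12.68, 12.68 and 12.55 in control (adjusted p = 0.0022). Ccn1, a matricellular ligand of αv receptors, was 1.92-fold lower (12.27 ± 0.32 with PDGF-BB and 13.21 ± 0.02 in control, SD, n = 3 each, adjusted p = 0.0057). Mfge8, a secreted RGD protein that bridges dying cells to αvβ3 and αvβ5, was 1.42-fold lower (12.12 ± 0.13 with PDGF-BB and 12.63 ± 0.07 in control, n = 3 each, adjusted p = 0.0058). These 3 ligands did not overlap between the groups. Of all 25 measured ligands 14 did not overlap, beside 37.6% of all genes. The 3 were named for their small p, so their lack of overlap adds no support.

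**Figure D3:**
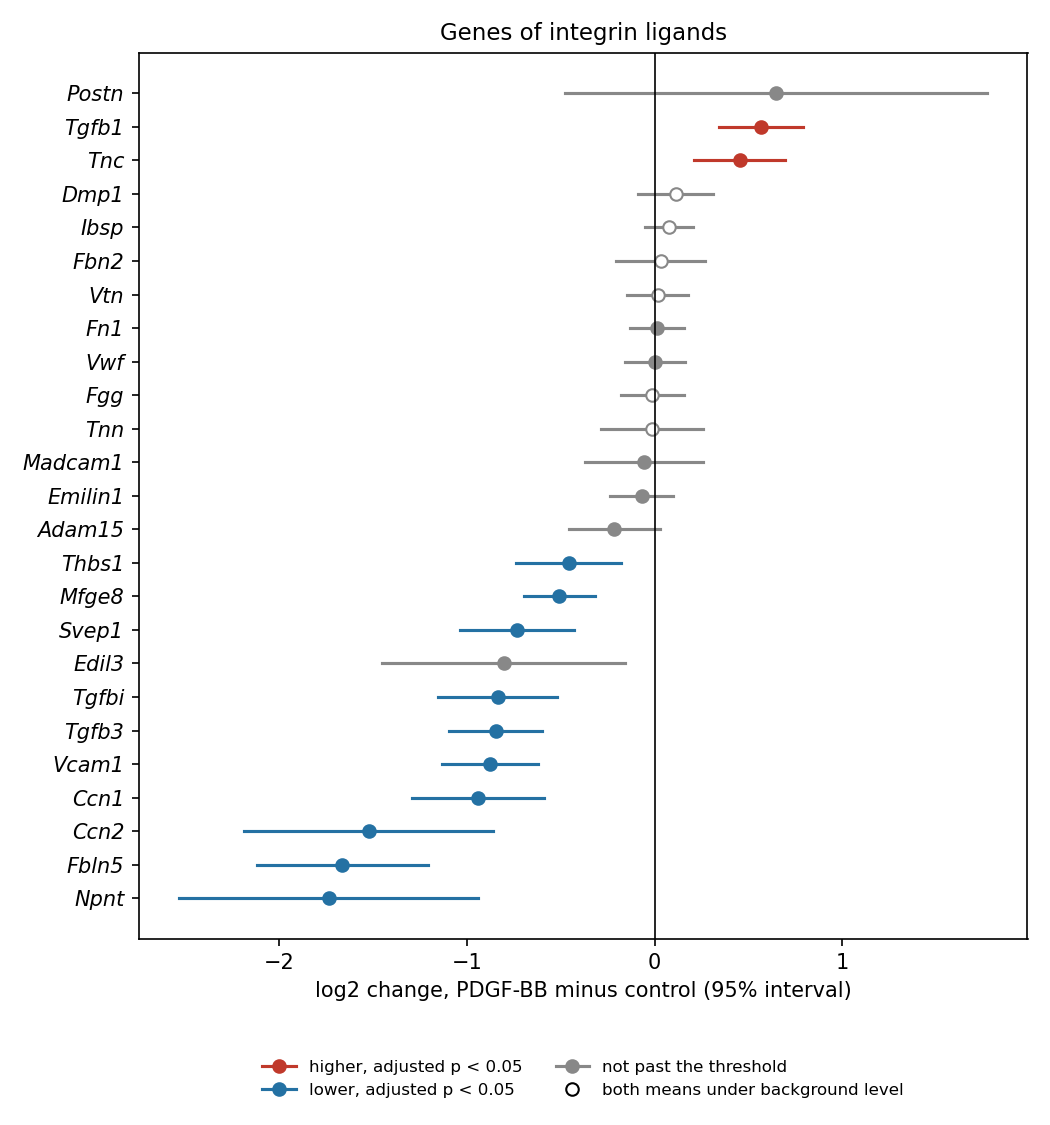
Log2 change (PDGF-BB minus control, horizontal axis, 95% interval not adjusted for the number of genes) of the 25 measured ligand genes, sorted by size; red marks the 2 that rose, blue the 10 that fell, grey those not past the threshold, and open points those under the background level in both groups. Tgfb1 (0.57) and Tnc (0.45) lie above 0, Fn1 (0.01) at 0, and Npnt (-1.73) and Fbln5 (-1.66) at the lower end.

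Latent TGF-β is both a ligand and a substrate of αv integrins, which pull its RGD-bearing latency peptide open. Its 2 isoforms with that motif went in opposite directions. Tgfb1 rose 1.48-fold (11.38, 11.22 and 11.15 with PDGF-BB, and 10.73, 10.52 and 10.79 in control, adjusted p = 0.0069), and Tgfb3 was 1.80-fold lower (11.50, 11.28 and 11.56 with PDGF-BB, and 12.22, 12.19 and 12.47 in control, adjusted p = 0.0027). Of the proteins that hold the latent form, Ltbp3, which ties it to the matrix, fell by 0.38 on the log2 scale (SE 0.07, adjusted p = 0.010), and Lrrc32 (GARP), which holds it at the cell surface, fell by 0.49 (SE 0.13, adjusted p = 0.036). The Lrrc32 call was lost without PDGF-BB array 3 or any 1 control array (adjusted p = 0.051 to 0.098). Of the 6 genes of this list, 1 rose, 3 fell and 2 did not pass, which is 66.7% called, beside 21.5% of all genes, and no test of the list was run. Tgfb1 and Tgfb3 are also counted among the ligands above, so the lists share these calls.

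Of 19 measured proteins that bind integrin tails or signal from them, 4 fell, 0 rose and 15 did not pass in limma (21.1% called, against 21.5% of all genes). Tns1 and Tns3, tensins that link integrins to actin at fibrillar adhesions, fell by 0.53 (adjusted p = 0.0063) and 0.47 (0.037) on the log2 scale. Tln2, talin 2, fell by 0.41 (adjusted p = 0.034) and Fermt2, the integrin activator kindlin 2, by 0.26 (0.049). The Tln2 and Tns3 calls were lost without PDGF-BB array 1 or 3 or control array 2 or 3 (adjusted p = 0.087 to 0.11). Fermt2 did not pass in the paired fit (adjusted p = 0.066), with arrays centred on their median (0.056), and without any 1 array other than control array 3 (0.083 to 0.15). Among 13 genes of integrin traffic 1 rose, Arf6, a small GTPase of integrin recycling, by 0.38 (adjusted p = 0.014, and 0.052 without PDGF-BB array 1), and none fell. That is 7.69% called, against 21.5% of all genes.

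The genes whose values ran most like those of the 3 called subunits were found by Pearson's r over the 6 arrays among 12948 genes above the background level. For Itgb3 they were Sipa1l2, Clip2 and Tnfsf9 (r = 0.998, 0.998 and 0.997). For Itgb5 they were Yap1, Ajm1 and Clip4 (r = 0.995, 0.994 and 0.994), with log2 changes of -0.25, -0.44 and -0.31. For Itga4 they were Pdf, Ramp3 and Lratd2 (r = 0.994, 0.993 and 0.990). All 6 arrays of both groups enter each r, so the difference between the groups is part of it.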

How the data were processed

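RNA of 3 PDGF-BB and 3 control samples was measured on 1-colour arrays. The authors deposited log2 values of 21225 probe sets, which the submitters' processing notes say were made with RMA, a method that equalises the arrays' distributions, so a change in total RNA cannot be seen; software, version and probe set definition are not given in these sources. The 20239 probe sets with exactly 1 symbol in GEO's platform annotation (symbols updated through RefSeq) were tested; the other 986 entered only an alternative. Groups came from the sample titles. The fit was limma 3.58.1 in R 4.3.3 (lmFit, eBayes) with a single term for treatment; all 6 arrays entered, and dim genes were kept. Tests were two-sided, with Benjamini-Hochberg adjusted p-values over all genes tested, and log2 changes are PDGF-BB minus control. Precision is limited by the number of arrays, 3 per group. The script was tested on simulated data.

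The members and gene lists were chosen with earlier results of these data known. Named genes are the 9 members, Itgb1 and Itgb7, the ligands Fn1, Vtn, Spp1, Tnc, Vcam1, Npnt and Tgfb1, up to 4 called genes with the smallest p of the remaining ligands and of each other list, and the 3 genes most like each called member. Spp1 and 1 other listed ligand are not analysed here. Whether the labels' replicate numbers pair the arrays was checked on deviations from the group means: these correlated at 0.25, 0.32 and 0.25 for equal numbers and at -0.28 to 0.01 for unequal ones, so the numbers were used as pairs in an alternative fit. Deviations from a mean of 3 arrays sum to 0 in each group. Positive values for equal numbers thus push those for unequal numbers down, and the check cannot establish the pairing. Other alternatives were repeated quantile normalization, median centring, filters at the 25th and 50th percentile of mean signal, 2 other eBayes settings, all probe sets, and leaving out each array.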

Additional observations from a re-analysis of the deposited data

How the results depend on the processing

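Of the 67 values of the 9 members under alternatives that kept all arrays, 65 kept their direction and their side of the threshold and 2 (Itga8 and Itgb8 with the replicate number as a block) passed in addition. With that block 4 subunits rose rather than 2, and it changed no other call among the members; with only genes above the 50th percentile of mean signal 1 rose, because that filter leaves 5 members and removes Itga4. Of 54 values with 1 array left out, 47 kept their side of the threshold, 5 (of 18 values of called members) lost the call and 2 gained one, and no called value changed direction. The number of members that rose then ranged from 1 to 3 and of those that fell from 0 to 2, all genes called from 2934 to 4219 against 4342, ligands called from 10 to 12, the members' median from 0.11 to 0.28, and the change of Itgb3 minus Itgb5 from 1.05 to 1.37; the cause was not tested. With the block, 14 rather than 12 ligands and 4741 genes were called, and Itgb3 minus Itgb5 had an exact p of 0.25, the smallest for 3 pairs. That p too was fixed by the opposite directions of the 2 genes in every pair. Of the values of called genes named by the rule outside the 9, 2 of 151 lost the call with all arrays kept, both of Fermt2, and 29 of 114 with 1 array left out, where 1 gene not called, Itgb7 without PDGF-BB array 3, passed. Taking the highest absent marker (8.25) as background puts Itga4 under it in both groups, and its fold is then without meaning. No gene had several probe sets, so averaging them could not be run.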

Other observations

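Among the 15 members and ligands that were called, PDGF-BB array 2 lay farthest from the control mean in 13 and PDGF-BB array 1 in 2. Over all 4342 called genes PDGF-BB array 2 was the farthest in 46.8%. Without that array 2934 genes were called, Itga4 had a log2 change of 0.92 (adjusted p = 0.031), and 12 ligands were called.

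The spread within a group was uneven for some genes. For Ccn1 the SD was 0.32 with PDGF-BB and 0.02 in control, for Fbln5 0.42 with PDGF-BB and 0.08 in control, and for Itga4 0.53 with PDGF-BB and 0.12 in control (n = 3 each), whereas Itgb3 had 0.06 with PDGF-BB and 0.15 in control. limma's fit uses 1 spread for both groups.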
